A study of Mus musculus with 12 samples.

Results

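The 3 Period genes of the mouse, Per1, Per2 and Per3, were followed in nascent RNA of the liver over the light:dark cycle. They were taken by their symbols, 3 of the 21490 gene symbols in the table, and all 3 passed the filter on low signal that 6284 symbols passed. The study sequenced nascent RNA, that is, RNA still being made and recovered with the chromatin of purified nuclei, to find the genes whose transcription follows a daily rhythm (Nascent-Seq). Livers came from wild-type C57BL/6 mice, male per the study's methods and 3 to 6 months old, entrained to 12 hr of light and 12 hr of dark. The labels separate the groups by time of collection only. Livers were collected at ZT0, ZT4, ZT8, ZT12, ZT16 and ZT20 (zeitgeber time, in hours after lights on) with 2 replicates per time point, 12 libraries in all. The study describes 2 independent series of 6 time points, and the replicate numbers are read here as these series. How many animals stood behind a library is not given in the sources used here, so the tests measure the spread between libraries.

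PER proteins are the negative arm of the mammalian circadian clock. The transcription factors CLOCK and BMAL1 (gene Arntl) bind E-boxes and activate the Period and Cryptochrome genes, and PER and CRY proteins enter the nucleus in complexes that inhibit CLOCK:BMAL1. PER1 and PER2 are core parts of this inhibitor, while PER3 is less needed for the rhythm itself. Other inputs act on the same genes, among them the PAR bZIP factors DBP, TEF and HLF, which bind D-boxes, and CREB, which binds cAMP response elements (CRE). In the liver the Period genes also respond to feeding, temperature and hormones.

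The genes lie on different chromosomes (mm9, the build of the files, counted from 1, with exons from GENCODE M1). Per1 spans 68908756 to 68923459 on the plus strand of chromosome 11, 14704 bp with 24 merged exons of 5631 bp. Per2 spans 93312559 to 93355905 on the minus strand of chromosome 1, 43347 bp with 23 merged exons of 5841 bp. Per3 spans 150377764 to 150418731 on the minus strand of chromosome 4, 40968 bp with 23 merged exons of 9608 bp. All 3 are protein-coding, and no annotated gene overlaps them. The signal does not separate strands, so RNA made from the opposite strand of these exons cannot be told apart from Period RNA.

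The promoter windows show which of the elements named above lie next to the starts of the genes (RefSeq, GRCm38.p6 table, 250 bases before the start, 5′ to 3′ on the strand of the gene). The table held 2 of the 3 genes, with 2 starts for Per1 and 1 for Per3. Each promoter sequence had 1 match on its own chromosome in mm9, searched on the strand of the gene only. The windows lie at chr11:68912201-68912450 and chr11:68913404-68913653 on the plus strand for Per1. That of Per3 lies at chr4:150418775-150419024 on the minus strand. Capitals mark an E-box (CACGTG), a D-box (TTATGTAA) or a short CRE (CGTCA, printed as TGACG where it lies on the other strand), searched on both strands. Both Per1 windows lie inside the annotated gene interval, which begins further upstream.
Per1, start 1: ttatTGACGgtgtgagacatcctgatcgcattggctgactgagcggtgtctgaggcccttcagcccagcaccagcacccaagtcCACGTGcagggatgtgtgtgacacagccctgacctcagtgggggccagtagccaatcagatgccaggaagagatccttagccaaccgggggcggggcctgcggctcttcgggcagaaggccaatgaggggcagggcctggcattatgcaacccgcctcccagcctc
Per1, start 2: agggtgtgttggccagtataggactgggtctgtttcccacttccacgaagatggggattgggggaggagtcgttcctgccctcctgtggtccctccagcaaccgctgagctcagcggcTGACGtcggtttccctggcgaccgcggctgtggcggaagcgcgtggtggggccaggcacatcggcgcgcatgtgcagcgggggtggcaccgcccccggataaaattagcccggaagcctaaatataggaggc
Per3: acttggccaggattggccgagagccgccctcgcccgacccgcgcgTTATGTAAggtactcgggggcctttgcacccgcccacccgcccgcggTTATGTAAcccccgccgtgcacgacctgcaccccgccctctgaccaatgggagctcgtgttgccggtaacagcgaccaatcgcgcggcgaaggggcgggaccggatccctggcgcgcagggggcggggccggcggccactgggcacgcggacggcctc
The window of Per1 start 1 held 1 E-box, beginning at base -166 from the start, and 1 short CRE at base -246. The window of Per1 start 2 held 1 short CRE, at base -132. The Per3 window held 2 D-boxes, at bases -205 and -158. Among all 32851 promoter windows of this length, 6.02% held an E-box of these letters, 0.819% a D-box and 17.8% a short CRE, which is also a part of the full CRE (TGACGTCA, in 1.55% of windows and in none of the 3). A share of 0.0183% of windows held 2 or more D-boxes. These matches are descriptions of letters and not of binding.

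Signal is given in reads per base pair of exon (rpbp), so it can be compared between genes per length, with the exon lengths that the authors used, which were not checked against the annotated ones above. Per1 was lowest in the early light phase and highest at ZT12, the time of lights off. In replicate 1 its signal was 0.8 rpbp at ZT0, 1.2 at ZT4, 8.2 at ZT8, 16.8 at ZT12, 8.7 at ZT16 and 4.8 at ZT20. In replicate 2 it was 1.2, 0.5, 5.5, 30.4, 8.1 and 7.6 rpbp at the same time points. Both series thus had a single high time point, ZT12, and no library of ZT0 or ZT4 reached the lowest of the other 8 libraries. The mean was 23.6 ± 9.62 rpbp (SD, n = 2) at ZT12 against 0.85 ± 0.495 (n = 2) at ZT4, a ratio of 27.8 between these means. ZT12 alone held 50.3% of the summed daily signal, and ZT16 was already down to 35.6% of the ZT12 mean. In bulk liver, less RNA per cell and fewer cells that make it cannot be told apart, here and below.

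Per2 had a smaller range and was high at both ZT12 and ZT16. Its signal in replicate 1 was 6.6 rpbp at ZT0, 9.2 at ZT4, 11.7 at ZT8, 25.4 at ZT12, 34.2 at ZT16 and 21.1 at ZT20. In replicate 2 it was 9.3, 4.4, 14.9, 35.0, 22.6 and 13.1 rpbp. The highest library was ZT16 in series 1 and ZT12 in series 2, so the series differed in where the maximum fell. At ZT16 the mean of 28.4 ± 8.20 rpbp (SD, n = 2) was still 94.0% of the ZT12 mean, and the libraries of these time points overlapped. The trough was shallow, with no library under 4.4 rpbp, and the ZT12 mean was 4.44 times the ZT4 mean. An antisense transcript of Per2 is known in the liver, and its share of this signal, at the trough above all, cannot be told apart here.

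Per3 was high at ZT8 already. In replicate 1 its signal was 0.6 rpbp at ZT0, 5.9 at ZT4, 21.1 at ZT8, 22.4 at ZT12, 6.2 at ZT16 and 3.6 at ZT20. In replicate 2 it was 1.3, 0.9, 21.6, 22.6, 12.1 and 3.7 rpbp. The libraries of ZT8 and ZT12 formed a plateau with close replicates, 21.4 ± 0.354 and 22.5 ± 0.141 rpbp (SD, n = 2), and together the time points held 35.0% and 36.9% of the daily sum. The lowest mean, 0.95 ± 0.495 rpbp (n = 2) at ZT0, was 23.7 times below that of ZT12. The ratio between replicates was largest at ZT4, where 5.9 rpbp in series 1 stood against 0.9 in series 2, a ratio of 6.56.

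**Figure D1:**
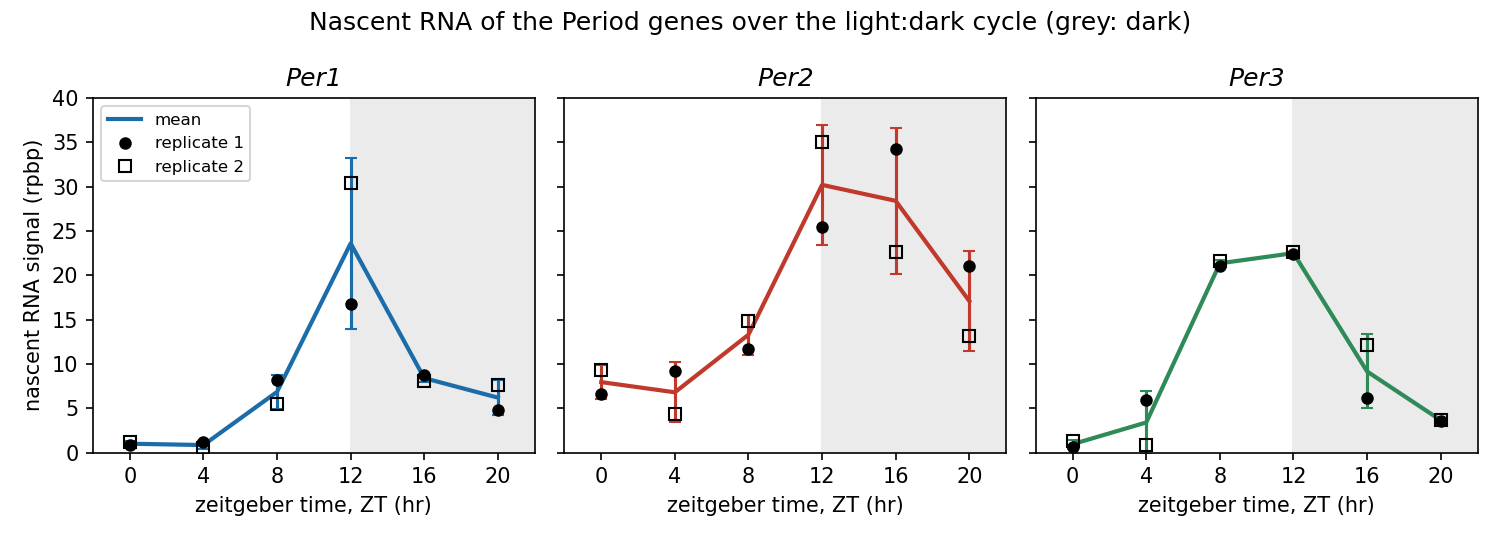
Nascent RNA signal in rpbp (y axis) against zeitgeber time in hours (x axis) for Per1, Per2 and Per3; points are the single libraries of replicate 1 (filled circles) and replicate 2 (open squares), lines join the means and bars are the SD of 2 libraries. Per1 has a single high point at ZT12 (16.8 and 30.4 rpbp), Per2 is high at ZT12 and ZT16 (22.6 to 35.0 rpbp), and Per3 is high at ZT8 and ZT12 (21.1 to 22.6 rpbp).

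Daily rhythm was scored by F24, the share of the variance of the 12 values that lies in a 24-hr sine wave. A rhythm was called where F24 exceeded 0.45, the permutation p was under 0.05 and the highest value exceeded 1.5 times the lowest. All 3 Period genes were called, against 15.2% of the tested genes, and all 3 also met the stricter limits of strong rhythms (F24 over 0.6 and a ratio over 7/4), against 6.38%. Per1 and Per3 exceeded the filter of 6 rpbp in 6 libraries each, all from ZT8 to ZT20, and so could enter the test only through the time points where they were high. Per2 exceeded it in 11 of 12 libraries.

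F24 was 0.868 for Per3, rank 18 of the 6284 tested genes, with a one-sided permutation p of 0.00046. Per2 had 0.827, rank 50, with a permutation p of 0.0003. Per1 had 0.627, rank 382, with a permutation p of 0.00015. A 12-hr wave took 16.05% of the variance of Per1, against 9.87% for Per3 and 2.61% for Per2. Adjusted by Benjamini-Hochberg over every tested gene, the permutation p was 0.0377 for Per1, 0.0483 for Per2 and 0.0542 for Per3, where 0.684% of genes passed 0.05. With 1000000 permutations instead of 100000 these adjusted permutation p-values were 0.0408, 0.0517 and 0.0517, so Per2 and Per3 lay at the threshold within the error of the permutation itself. The 3 rhythm calls held when any of the 12 libraries was left out, with F24 between 0.580 and 0.927. Within a single series of 6 values the smallest exact permutation p is 0.0167, which Per1 and Per3 reached in series 1. In series 2 the exact permutation p was 0.1 for both, and for Per2 it was 0.05 in each series.

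limma's moderated F-test on log2(rpbp + 1) asked whether the 6 time points differed in any way. All 3 genes passed, against 7.65% of tested genes. Per1 ranked 10 by this test, with a Benjamini-Hochberg adjusted p of 0.00181, Per3 ranked 63 (limma adjusted p = 0.00992) and Per2 ranked 191 (limma adjusted p = 0.0222). The order of the genes thus differed from that by F24. Time points accounted for 96.8% of the variance of Per3, 87.4% of that of Per1 and 85.9% of that of Per2, with a median of 63.3% over tested genes. The Per2 call was lost without ZT0 replicate 1 (limma adjusted p = 0.0595) and without ZT12 replicate 2 (0.0623), and with no filter on low signal those of Per2 (limma adjusted p = 0.0868) and Per3 (0.0587) were lost. The libraries of ZT8 and ZT20 were sequenced in 2 lanes each and the others in 1, so lanes and time points are confounded. Among the 4 time points run in 1 lane, limma's F-test still gave adjusted p-values of 0.00440 for Per1, 0.0377 for Per2 and 0.0483 for Per3, where 1.91% of genes passed.

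A cosine fitted on the log2 scale gives the size of the daily wave with its error. Its amplitude on log2(rpbp + 1) was 1.84 ± 0.225 (SE, 12 libraries) for Per3, 1.73 ± 0.203 for Per1 and 1.09 ± 0.136 for Per2. Amplitudes of Per1 and Per3 lay within their errors of each other and above that of Per2 by more than the standard errors, a difference that was not tested. All 3 fits passed (limma adjusted p = 0.00209 for Per1, 0.00268 for Per2 and 0.00251 for Per3), against 2.59% of tested genes.

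The Period genes peaked in the order Per3, Per1, Per2 around lights off. The 24-hr component of the linear values peaked at ZT10.8 for Per3, with 10.3 in series 1 and 11.4 in series 2. For Per1 it peaked at ZT12.8, with 12.6 and 13.0 in the series. For Per2 it peaked at ZT14.3, with 15.2 and 13.4. Leaving out each library moved the phase between 10.4 and 11.3 hr for Per3, 12.4 and 13.3 for Per1, and 14.1 and 14.7 for Per2. These ranges did not overlap, but the sets behind them share most of their libraries. Both single-series phases of Per2 and of Per3 lay outside the range of their gene. The cosine on log2 values placed Per3 at 11.5 ± 0.467 hr (SE, 12 libraries), Per1 at 13.5 ± 0.448 and Per2 at 14.5 ± 0.476, the same order with a smaller step from Per1 to Per2.

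Per2 followed Per3 by 3.50 hr (4.94 in series 1 and 2.06 in series 2). Per1 followed Per3 by 1.99 hr (2.35 and 1.59). Per2 followed Per1 by 1.51 hr, but by 2.59 hr in series 1 and 0.464 hr in series 2. The order was the same in all 12 sets of 11 libraries, which share most of their members. Time points 4 hr apart set the resolution of these phases, which rest on the shape of the curve between samples.

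Whether 2 of the genes follow different daily courses was tested on their ratio within each library. Values are differences of log2(rpbp + 1), so the 1 rpbp added draws them towards 0 where signal is low, as for Per1 and Per3 at ZT0 and ZT4. Any antisense RNA at Per2 counts in its ratios, above all where Per2 is low. The ratio of Per2 to Per3 changed most clearly over the day, with F24 of 0.770 (permutation p adjusted over the 3 pairs = 0.00729). It was 2.25 and 2.16 at ZT0, -0.80 and -0.51 at ZT8, 0.17 and 0.61 at ZT12, and 2.26 and 1.58 at ZT20. Per2 was thus above Per3 in 10 of 12 libraries, and the exceptions were both libraries of ZT8.

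The ratio of Per1 to Per3 also changed, with F24 of 0.616 (permutation p adjusted over 3 pairs = 0.0232). It was lowest at ZT8, -1.26 and -1.80, where Per3 had reached its plateau and Per1 had not, and highest at ZT20, 0.33 and 0.87. The adjusted permutation p was 0.0559 without ZT8 replicate 2, 0.0506 without ZT20 replicate 2 and 0.0652 with the sequencing lanes as a block. The ratio of Per1 to Per2 had F24 of 0.538 and an adjusted permutation p of 0.0428, highest at ZT12 (-0.57 and -0.20) and lowest at ZT0 (-2.08 and -2.23). This last call was fragile: it kept an adjusted permutation p under 0.05 only without ZT16 replicate 1 or ZT20 replicate 2, and leaving out any of the other 10 libraries gave 0.0528 to 0.111, the highest without ZT12 replicate 2.

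**Figure D2:**
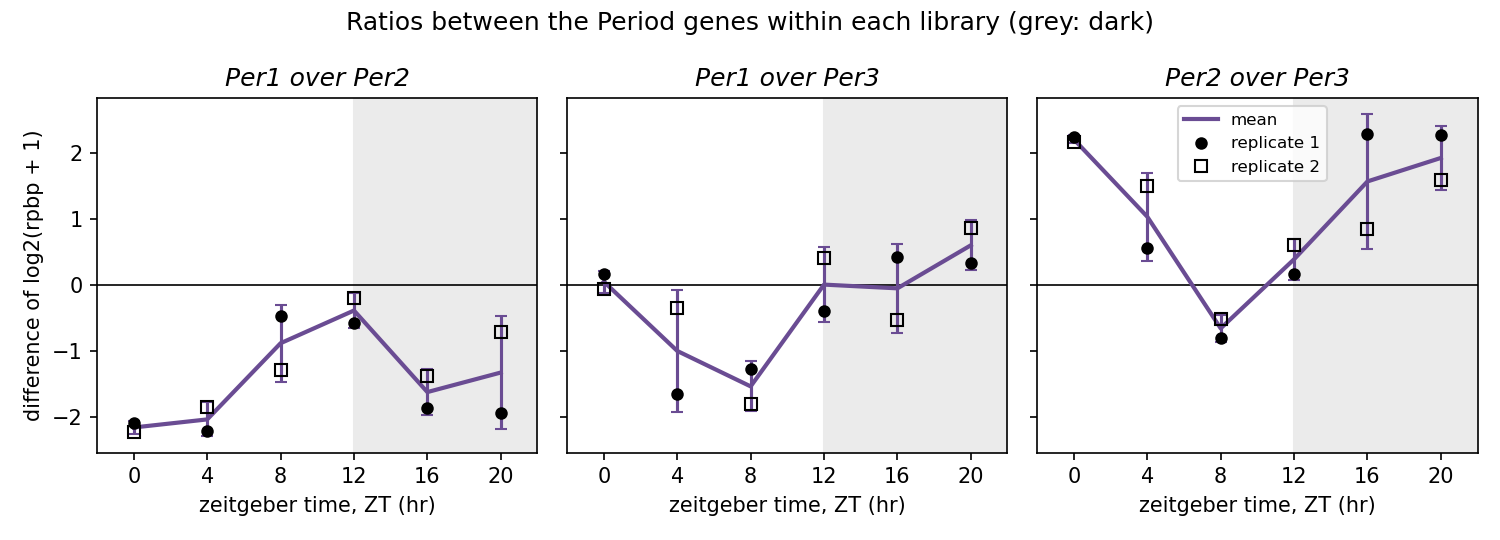
Difference of log2(rpbp + 1) between a pair of Period genes within a library (y axis) against zeitgeber time in hours (x axis); filled circles are replicate 1, open squares replicate 2, lines join the means, bars are the SD of 2 libraries and the horizontal line marks equal signal. Per2 over Per3 falls below the line only at ZT8 (-0.80 and -0.51), and Per1 over Per2 stays below it in all 12 libraries.

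Per length of exon, Per2 had the highest signal over the day, in which antisense RNA cannot be told apart. Its mean over the 12 libraries was 17.3 rpbp, above 85.4% of the tested genes, while Per3 had 10.2 rpbp (above 67.2%) and Per1 7.82 rpbp (above 51.7%). Per2 was higher than Per1 in 12 of 12 libraries, with a mean Per1 minus Per2 of -1.40 ± 0.738 on the log2(rpbp + 1) scale (SD, 12 libraries; two-sided exact sign-flip permutation p adjusted over 3 pairs = 0.00146). It was higher than Per3 by 1.08 ± 1.10 (adjusted exact permutation p = 0.0132). Per1 and Per3 did not differ beyond their spread: Per1 was higher in 5 libraries and Per3 in 7, with an exact permutation p of 0.229. Libraries of different time points are not replicates of 1 condition, so these tests weigh the whole day and not a time point.

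The rise and the fall were placed by tests of the 6 steps of 4 hr, in the same limma fit, with p-values adjusted by Benjamini-Hochberg over every tested gene. Of the 18 steps, 3 for each of 6 pairs of time points, 3 passed and all 3 were rises. Per1 rose from ZT4 to ZT8 by 2.09 ± 0.326 (SE; limma adjusted p = 0.0323) and Per3 by 2.63 ± 0.495 (0.0387), where 0.334% of tested genes rose. With 0.1 rpbp added instead of 1 the Per3 rise did not pass (limma adjusted p = 0.0785). Per2 had a difference of 0.94 ± 0.358 at this step (limma adjusted p = 0.228), although its ZT8 libraries lay above its ZT4 libraries. From ZT8 to ZT12, where 5.12% of genes rose, Per1 rose again by 1.61 ± 0.326 (limma adjusted p = 0.0216). Per2 had 1.12 ± 0.358 (limma adjusted p = 0.0747) and Per3 only 0.07 ± 0.495 (0.935). These calls rest on few libraries. Per1's ZT4 to ZT8 call was lost without ZT4 replicate 2 (limma adjusted p = 0.265), ZT8 replicate 2 (0.0722), ZT8 replicate 1 (0.0588) or either ZT0 library (0.0602). That of Per3 was lost without 9 of the 12 libraries, with limma adjusted p from 0.0605 to 0.251 (without ZT4 replicate 2), and kept without ZT4 replicate 1 or either ZT16 library. Per1's later rise was lost without ZT8 replicate 2 (0.159) or ZT12 replicate 2 (limma adjusted p = 0.119), and after removal of a trend with GC content, at 1.11 (0.0619). With no filter on low signal, every symbol with signal in any library was tested. None of the 3 rises then passed (limma adjusted p = 0.0552 to 0.157).

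No step downward passed for any of the 3 genes. From ZT12 to ZT16, Per1 differed by -1.33 ± 0.326 (limma adjusted p = 0.144) and Per3 by -1.27 ± 0.495 (0.310), with no overlap between the libraries. Per2 had -0.10 ± 0.358 (limma adjusted p = 0.927). From ZT20 to ZT0, Per1 differed by -1.83 ± 0.326 (limma adjusted p = 0.112), Per3 by -1.28 (0.602) and Per2 by -0.997 (0.529). At this step 0.0159% of tested genes fell and 0.0477% rose. Few genes of any kind passed at the falling steps, with 0.239% lower at ZT16 than at ZT12 and 0.621% lower at ZT20 than at ZT16.

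Time points 12 hr apart were also compared, which stays within 1 kind of sequencing. Of 9 such tests 5 passed. The median difference over all tested genes lay between -0.20 (ZT16 against ZT4) and 0.15 (ZT20 against ZT16) in all of these contrasts, the steps included. Between ZT0 and ZT12, where 2.85% of tested genes were higher at ZT12, Per1 was higher by 3.57 ± 0.326 (SE; limma adjusted p = 0.000884), Per3 by 3.61 ± 0.495 (0.00412) and Per2 by 1.80 ± 0.358 (0.0215). Between ZT4 and ZT16, where 0.764% of genes were higher at ZT16, Per1 was higher by 2.37 ± 0.326 (limma adjusted p = 0.0107) and Per2 by 1.96 ± 0.358 (0.0275), and Per3 had 1.42 ± 0.495 (0.167). Between ZT8 and ZT20 none passed, where 1.16% of genes were higher and 0.414% lower at ZT20. Per3 had the largest of these differences, -2.26 ± 0.495 with a limma adjusted p of 0.0534, and its ZT20 libraries (3.6 and 3.7 rpbp) lay far below those of ZT8 (21.1 and 21.6 rpbp).

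The Per2 difference between ZT0 and ZT12 was lost without any of its 4 own libraries (limma adjusted p = 0.0636 to 0.185, the highest without ZT0 replicate 1), and that of Per3 without ZT0 replicate 1 (0.0620). Between ZT4 and ZT16 the calls were lost without ZT4 replicate 2 for Per1 (limma adjusted p = 0.0621) and Per2 (0.167), and without ZT16 replicate 1 for Per2 (0.0598). For Per3 that contrast passed without ZT4 replicate 1, at 2.35 (limma adjusted p = 0.0349), and its difference between ZT8 and ZT20 passed without any 1 of the ZT4 or ZT16 libraries (0.00722 to 0.0392). The 5 calls fell to 3 without ZT0 replicate 1 and to 2, Per1 and Per3 between ZT0 and ZT12, with no filter on low signal.

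**Figure D3:**
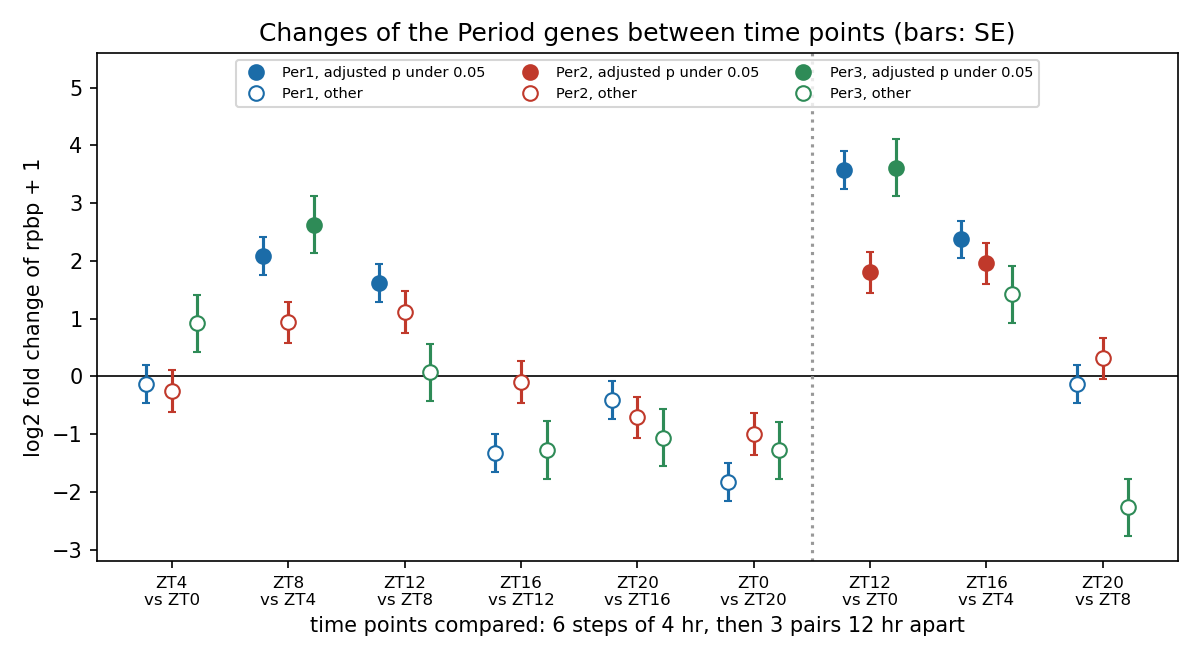
Difference of log2(rpbp + 1) with its standard error (y axis) for the 6 steps of 4 hr and the 3 pairs of time points 12 hr apart (x axis); filled points passed an adjusted p under 0.05 in limma and open points did not. The 3 filled steps are the rises of Per1 (2.09 and 1.61) and Per3 (2.63) between ZT4 and ZT12, and Per1, Per2 and Per3 all differ between ZT0 and ZT12.

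The Period genes are 1 arm of the core clock loop, so their timing was set beside the other genes of the loop. Of 16 listed genes 15 were tested and 13 called rhythmic, 8 of them strong, beside the 15.2% and 6.38% of all tested genes. The median F24 of the list was 0.673, against 0.222 over all tested genes, and 11 of 15 passed limma's F-test, where 7.65% of tested genes did. An adjusted permutation p under 0.05 was reached by 5 of the 15, where 0.684% of tested genes reached it. Hlf (F24 of 0.308) and Bhlhb2 (0.0305) were not called, and Bhlhb3, at 2.6 rpbp or less, was not tested. Nr1d1, which encodes the repressor REV-ERBα, peaked at ZT6.22 (-4.63 hr from Per3), and Nr1d2 at ZT8.54. Among the PAR bZIP factors, Dbp peaked at ZT8.38 (-2.47 hr from Per3) and Tef at ZT10.1 (-0.70 hr). Of the Cryptochromes, Cry2 peaked at ZT11.9, between Per3 and Per1, and Cry1, encoding the late-acting repressor, at ZT18.7, 4.34 hr after Per2. Clock, Arntl and Npas2, the activators, peaked at ZT22.5, ZT22.5 and ZT22.8, 9.62, 9.65 and 9.98 hr after Per1.

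**Figure D4:**
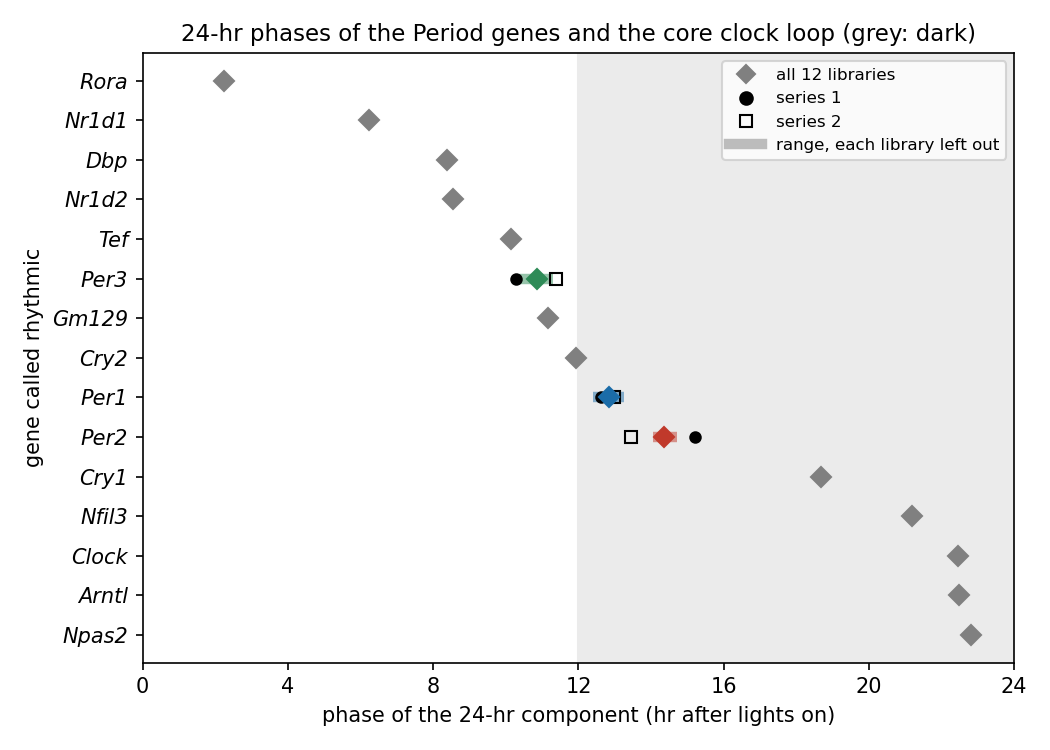
Phase of the 24-hr component in hours after lights on (x axis) of the Period genes and 12 of the 13 other clock loop genes called rhythmic (y axis); diamonds use all 12 libraries, and for the Period genes circles and squares give series 1 and series 2 and bars the range when each library was left out. Per3, Per1 and Per2 lie at 10.8, 12.8 and 14.3 hr, between Tef at 10.1 and Cry1 at 18.7 hr.

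Genes whose products act on PER proteins or on the Period genes were counted in 3 further lists. Of 13 enzymes acting on PER proteins 6 were tested and 1 was called rhythmic, Btrc, which encodes the ubiquitin ligase subunit that recognises phosphorylated PER (F24 of 0.554, phase ZT6.24). The kinase gene Csnk1d ranged little around its mean of 7.88 rpbp (F24 of 0.0531, not called), and Csnk1e, at 2.5 rpbp or less, was not tested. Of 15 proteins found with PER complexes 7 were tested and 1 was called, Sin3a, encoding a scaffold of histone deacetylase complexes (F24 of 0.649, phase ZT4.32). Of 12 signalling factors linked to the induction of Per1 or Per2, as inducers or otherwise, 8 were tested and 2 were called. These were Crem (F24 of 0.545, phase ZT21.7) and Ppara (F24 of 0.593, phase ZT8.08). No gene of these 3 lists met the limits of strong rhythms, and none had an adjusted permutation p under 0.05. In limma's F-test over time points, where 7.65% of genes passed, 1 gene of each list did: Ppp1ca, a phosphatase subunit gene (limma adjusted p = 0.0477), Timeless (0.0370) and Snf1lk, which encodes the kinase SIK1 (0.0484). Nr3c1, the glucocorticoid receptor, had F24 of 0.0514 and was not called. The shares called, 16.7%, 14.3% and 25% of the genes tested in the lists, rest on 1 to 2 genes each and lie near the 15.2% of all tested genes.

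Over the 12 libraries, the tested genes most like each Period gene were ranked by Pearson's r on log2(rpbp + 1), as a description across samples that share their time points. For Per1 these were Usp2 (r = 0.963), a deubiquitinase gene, 1200013P24Rik (0.950), Cyp7a1 (0.918), the rate-limiting enzyme of bile acid synthesis, Ccrn4l (0.909), which encodes Nocturnin, and Sult1a1 (0.905), a sulfotransferase gene. All 5 had their highest mean at ZT12, as Per1 did. For Per2 they included Per1 (0.881) and Tro (0.853), both with their highest mean at ZT12. For Per3 they were Tef (0.956), Nrg4 (0.932), AK161900 (0.905), Fbxo22 (0.897) and 1200013P24Rik (0.887), with Tef and AK161900 highest at ZT8 and the others at ZT12. Nrg4 and Fbxo22 overlap each other on chromosome 9. Among the Period genes, r was 0.881 between Per1 and Per2, 0.820 between Per1 and Per3 and 0.671 between Per2 and Per3. For Per1 and Per2 these names depend on the scale: on linear values 1 of the 5 genes for Per1, 0 of the 5 for Per2 and 4 of the 5 for Per3 were the same.

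Because the signal is not stranded, the nearest gene of the table on each side of each Period gene was examined too. Vamp2, which ends 2872 bp before Per1 on the same strand, ranged from 3.8 to 12.1 rpbp and had its highest mean at ZT12 as well, 10.3 rpbp. It was called rhythmic (F24 of 0.492, phase 13.8 hr, permutation p = 0.0400) but did not pass adjustment (adjusted permutation p = 0.277) and was not called on log2 values. At ZT0 and ZT4 it had 4.6 to 5.5 rpbp, above Per1's 0.5 to 1.2. Hes7, downstream of Per1, was at 0.3 rpbp or less in every library.

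Hes6, 2759 bp downstream of Per2, was not called rhythmic (F24 of 0.124, permutation p = 0.651), and its highest value, 17.9 rpbp, came from ZT12 replicate 2 alone, against 5.6 in replicate 1. Traf3ip1, upstream of Per2, stayed between 2.2 and 6.0 rpbp and was tested only with the lower filter of 3 rpbp, where it was not called (F24 of 0.151, permutation p = 0.488).

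Both neighbours of Per3 had their highest mean at ZT12, as Per3 did, at a low level. Uts2, which runs towards Per3 on the opposite strand and ends 1844 bp from it, was listed at 0 in both libraries of ZT0 and had 3.6 and 1.9 rpbp at ZT8 and 5.0 and 2.0 rpbp at ZT12. Vamp3, which lies upstream on the same strand as Per3 and ends 2682 bp before it, ranged from 1.9 to 3.9 rpbp. With the filter of 3 rpbp both were called rhythmic, Uts2 with F24 of 0.659 and a phase of 11.3 hr (permutation p = 0.0025) and Vamp3 with 0.681 and 10.5 hr (permutation p = 0.00285), and neither passed adjustment (adjusted permutation p = 0.127 and 0.131). Over 12 libraries Uts2 had r = 0.925 and Vamp3 r = 0.872 with Per3 on the log2 scale, where Uts2 averaged 13.5% and Vamp3 24.8% of the Per3 level. Without strand information, reads from past the end of Per3 cannot be told apart from Uts2 reads.

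**Figure D5:**
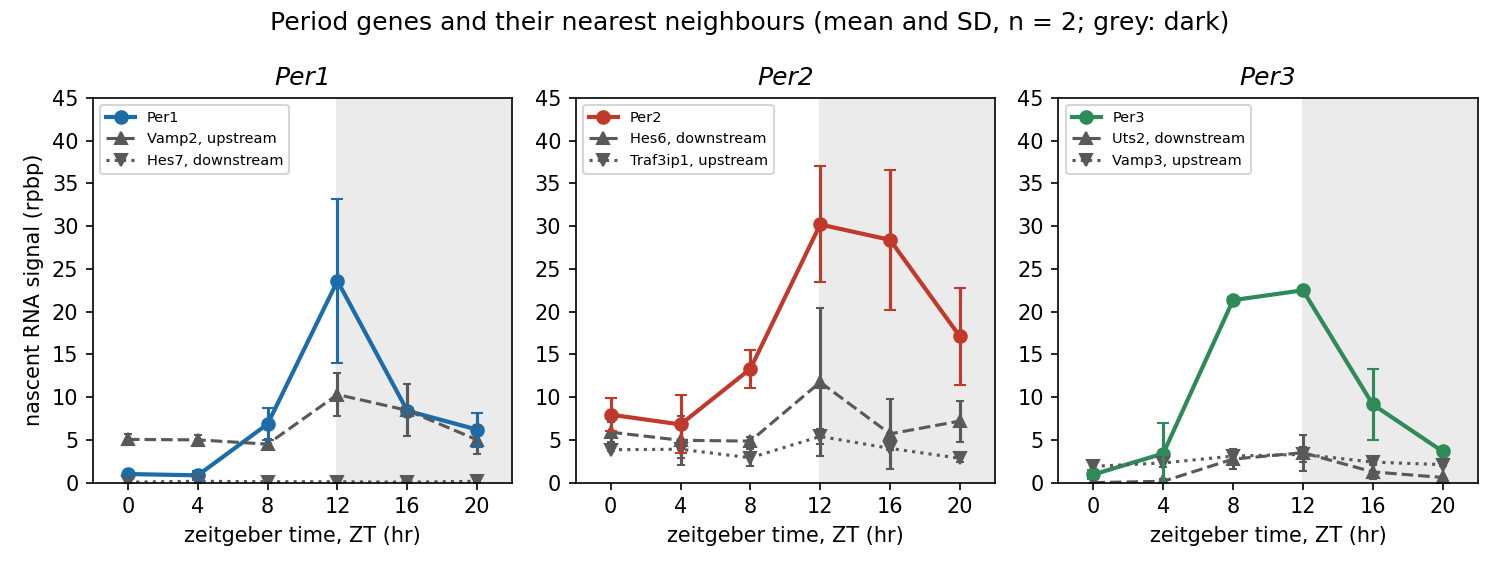
Mean nascent RNA signal in rpbp with the SD of 2 libraries (y axis) against zeitgeber time in hours (x axis) for each Period gene (coloured) and the nearest annotated gene of the table on each side (grey). At their highest time point the Period genes reach 22.5 to 30.2 rpbp, while the neighbours have means of 11.8 rpbp or less.

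As a check of the tissue, the 6 hepatocyte markers summed to 448 to 1441 rpbp per library, with 5 of 6 above 6 rpbp. The markers of other cell types summed to 16.9 to 71.2 rpbp for Kupffer cells, 14.0 to 28.0 for endothelial cells, 9.8 to 14.2 for stellate cells, 8.5 to 14.6 for erythroid cells (2 of 4 in the table), 2.7 to 9.9 for leukocytes and 1.0 to 2.5 for cholangiocytes, and no listed marker was at 0 in every library. The stellate sum was higher from ZT12 to ZT20 (means of 13.4 to 13.65 rpbp) than from ZT0 to ZT8 (10.5 to 11.4), as Per2 was. The Kupffer sum had its highest means at ZT8 and ZT12 (44.05 and 42.0 rpbp, against 26.45 to 34.65 at the other time points). Its ZT8 libraries were the highest and the lowest of all, at 71.2 and 16.9 rpbp, whereas Per3 had 21.1 and 21.6 rpbp there. The cholangiocyte sum was lowest at ZT8 and ZT12 (1.3 and 1.25 rpbp, against 1.75 to 2.2), and the hepatocyte sum was lowest at ZT16 (524 rpbp) and highest at ZT20 (1277 rpbp). The part of cell makeup in the Period values was not tested. The values of a library summed to 118342 to 160545 rpbp, and the median deviation of tested genes from their mean ran from -0.20 in ZT16 replicate 2 to 0.13 in ZT0 replicate 2 on the log2 scale.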

How the data were processed

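Nascent RNA of 12 mouse liver libraries was sequenced on a Genome Analyzer II. Per the submitters' processing notes and the study's methods, the authors ran CASAVA (version 1.7) and TopHat, aligned reads to mm9, kept uniquely mapped reads and merged the lanes of a library. The deposited signal is the unstranded coverage of a gene's merged exons (reads per base pair, rpbp), scaled by the authors to equal depth and rounded to 1 decimal. Read numbers were not used, so no interval for counting error is given, and the number of libraries (2 per time point) limits the precision. The authors also deposited an F24 score, a phase and a p-value per gene, which were not used. Blank lines (27919) were dropped.

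A gene entered the tests (6284 did) where any library exceeded 6 rpbp. F24 was computed on linear values with 100000 permutations, one-sided, and the limits for calls follow the study's methods. For single series all 720 orders were enumerated. limma 3.58.1 (R 4.3.3) was fitted on log2(rpbp + 1) to all tested genes, with 1 spread for the 6 time points and Benjamini-Hochberg adjustment. Permutation tests used numpy 2.4.6. Scripts were tested on simulated data. The table was matched by symbol to GENCODE M1 (14195 of 21490 symbols).

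The Period genes, the gene lists and the tests were chosen with earlier results of these data known. Named are the Period genes, the nearest gene on each side, the 5 most correlated genes of each, and genes of 4 lists (core clock loop, enzymes acting on PER proteins, proteins found with PER complexes, signalling factors). Some genes that this rule selects are left out of the text. The alternatives were filters of 3 and 12 rpbp and none, log2 values, a pseudocount of 0.1, the ratio of time-point means, rescaled libraries, removal of a GC trend in 20 bins, replicate and lane blocks, each series alone and each library left out, and 1000000 permutations, an alternative chosen after seeing the data.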

Additional observations from a re-analysis of the deposited data

How the results depend on the processing

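No called result changed direction under the alternatives run. Over all alternatives, the values for single contrasts, neighbours and most alike genes kept their call or number in 476 cases, lost the call in 34, gained it in 6 and moved in 2. The other results kept theirs in 302 cases, lost the call in 34, gained it in 1 and moved in 21. The rhythm calls of the 3 genes held under every filter, on log2 values, rescaled, after removal of the GC trend, with the replicate or lane block and without any library. In a single series of 6 values some calls were lost by the exact permutation test, while F24 was as high or nearly so: in series 2 it was 0.6003 for Per1 (exact p = 0.1), 0.831 for Per2 (0.05) and 0.888 for Per3 (0.1), and in series 1 it was 0.926 for Per2 (0.05). For Per3 (F24 of 0.868) the call was lost when an adjusted permutation p under 0.05 was asked for. That p was 0.0519 for Per1 and 0.0677 for Per2 with a filter of 3 rpbp, 0.0917 and 0.117 with none, 0.0448 for Per3 with a filter of 12 rpbp, and 0.0517 for Per2 with 1000000 permutations. Filters change the number of genes adjusted over. The Per1 phase was 13.5 hr on log2 values and in the limma cosine fit, and 12.4 to 13.3 hr with each library left out. limma's F-test over time points gave adjusted p-values of 0.0868 for Per2 and 0.0587 for Per3 with no filter, and 0.0180 to 0.0623 for Per2 with each library left out. The 3 steps that passed became 0 with no filter and 0 to 3 with each library left out (0 without ZT8 replicate 2), and the 5 opposites became 2 and 3 to 7. Without a replicate at a time point the remaining library is assumed to vary like the others.

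F24 of the Per1/Per2 ratio was 0.439 to 0.767 and of the Per1/Per3 ratio 0.541 to 0.744 with each library left out. With the lane block the Per1/Per3 ratio had F24 of 0.626. In series 1 the ratios Per1/Per2, Per1/Per3 and Per2/Per3 had 0.730, 0.885 and 0.933, and in series 2 0.580, 0.438 and 0.768, none past the threshold. Calls in the lists of enzymes, complex proteins and signalling factors were 0, 0 and 1 with a filter of 12 rpbp and 0, 0 and 1 after rescaling, which is few genes either way. The cause of these shifts was not tested.

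The main tests did not treat libraries of the same replicate number as paired. Deviations from the time-point mean correlated with r of -0.117 to 0.320 between same-numbered libraries over 15 pairs of time points (median 0.0734), and 5 pairs were over 0.1. With the replicate block, F24 was 0.637, 0.832 and 0.868 for Per1, Per2 and Per3, 2 steps and 5 opposites passed (the Per3 rise from ZT4 to ZT8 did not, limma adjusted p = 0.0729), and F24 of the Per1/Per2 ratio was 0.554 (adjusted permutation p = 0.0553).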
